A study of Mus musculus with 2 samples.

Results

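Squam* is a class of 217 cells that the deposited table of cells sets apart, by an asterisk, from the class Squam of the superficial corneal epithelium. The cells described here are those whose class name equals Squam* exactly, 217 of the 33885 cells of the series, and all 217 came from the dry eye library. They made up 1.32% of the 16420 dry eye cells (exact 95% interval 1.15 to 1.51), and none of 17465 control cells had this class name. A count of 3 cells in control would be a share of 0.0172%, and the exact upper limit of the share there was 0.0211%. Within dry eye they were 6.80% of Squam* and Squam cells together (5.95 to 7.73) and 12.1% of the 1793 cells with a starred class (10.6 to 13.7).

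The dry eye library pooled 6 right eyes of male C57BL/6J mice, 10 weeks old, in which the intraorbital and extraorbital lacrimal glands of the right side were removed and corneas collected at day 9. The control library pooled 7 left eyes of the 7 operated animals, 1 of whose right eyes was left out of dry eye because of injury, with the glands of that side in place, so right and left eye cannot be told apart from treated and untreated. No transgene, Cre or further agent is named for either group. Corneal epithelium was freed with enzyme G, taken apart with trypsin and sequenced with 10x 3' v3.1 chemistry, so each count is a unique molecular identifier (UMI) near the 3' end of a transcript. Within dry eye, Squam* is set beside 2973 Squam and 446 Wing* cells, with 3056 Squam cells of control as a further level. There is 1 library per group, and the classes were made from the same genes, so no test was possible and every value describes these cells. Intervals are exact, at 95%, and cover counting error only.

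The corneal epithelium is a layered sheet in which basal cells move up, become wing cells and then flat squamous cells that carry the barrier and the tear-facing coat of membrane mucins. Keratin 12 marks it in every layer, and keratin 5 with keratin 14 marks its basal cells. Under injury, dryness or inflammation, stratified epithelia switch on the stress keratins 6, 16 and 17, alarmins such as S100a8 and S100a9, precursors of the cornified envelope and cytokines of the IL-36 family. The lacrimal glands supply most of the watery tear, and their removal leaves the ocular surface dry.

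The name Squam* was checked first against markers of corneal layers and of other cells. Squam* cells carried the genes of the surface, at levels between those of Squam and Wing* for most of them. Psca, a membrane-anchored protein of the Ly6 family, had 7707 CPM in Squam* (UMIs of the class scaled to a total of 1000000), against 26005 in Squam and 1012 in Wing*. Asprv1, a skin-type aspartic protease, had 18582 CPM in Squam*, 32824 in Squam and 2560 in Wing*. The membrane mucin Muc4 had 1729 CPM in Squam*, 2270 in Squam and 288 in Wing*, and the water channel Aqp5 8764, 11280 and 5535 CPM in the same order. Krt12 had 19624 CPM in Squam*, 17322 in Squam and 16694 in Wing*, so the cornea's own keratin was present in each. Conj had 6734 CPM of Krt12, 7720 of Psca and 10309 of Asprv1. The level of Psca thus did not tell Squam* from Conj, and that of Asprv1 was within 2-fold. The membrane mucin Muc16 had 0 UMIs in Squam*, 1 in Squam and 3 in Wing*, so it says nothing here about the layer.

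Summed, the 20 superficial markers took 53578 CPM in Squam*, 75207 in Squam and 32011 in Wing*. The 13 basal markers took 18673 CPM in Squam*, 7761 in Squam and 21606 in Wing*, most of it Krt14, Krt5 and Krt15. Of 17 measured conjunctival markers, 6 were at 0 in Squam* and the sum was 16766 CPM in Squam*, 19718 in Squam and 8124 in Wing*, with Krt13 and Aqp5, which the cornea also makes, at the top. Of 7 conjunctival markers compared with Squam, 4 were at least 2-fold higher (Wfdc2, Ltf, Krt4, Krt19) and 1 lower (Krt7), with a median log2 ratio of 1.34. Of 7 compared with Wing*, 5 were higher and 1 lower, with a median of 1.92. Over all genes compared, 8.78% were higher and 4.02% lower than in Squam, and 7.8% higher and 16.0% lower than in Wing*. Markers of goblet cells summed to 4 UMIs over 6 genes in Squam*, and those of stroma to 4 UMIs over 3 genes.

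Markers of blood cells were at or near 0. The deposited table held 88 genes with counts in 1 or 2 dry eye cells, against 517 with counts in 3, so counts of rarer genes may be missing from it, and a marker at 0 over the whole library says little. Of 17 leukocyte genes, 16 had 0 UMIs in Squam*, Ptprc (the pan-leukocyte CD45) among them, and the list summed to 1.37 CPM in Squam*, 1.32 in Squam and 12 in Wing*. Of these 16, 14 had counts in at least 3 other dry eye cells, Ptprc in 11. The neutrophil-defining genes Ly6g and Cxcr2 had 0 UMIs in Squam* and counts in 10 and 5 other dry eye cells, whereas Mmp8 was at 0 in the whole library. The neutrophil list nevertheless summed to 304 CPM in Squam*, against 51.8 in Squam and 2289 in Wing*, because it holds Ltf and S100a9, which Squam* cells carried. Of the 4 measured platelet genes, Pf4 was at 0 in the whole dry eye library while Ppbp gave 78 of the list's 110.

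Squam* cells were deeper than Squam cells and shallower than Wing* cells. They had a median of 12466 UMIs per cell, with a lowest of 1583 and a highest of 74894, against medians of 9518 in Squam and 17484 in Wing*. The median number of genes per cell was 2395 in Squam*, 1882 in Squam and 3122 in Wing*, and the median mitochondrial share 1.36%, 1.21% and 1.61% in the same order. Of Squam* cells, 10.6% lay among the 5% of dry eye cells with the most UMIs, against 2.42% of Squam and 22.9% of Wing* cells. No doublet caller was run, and the part of doublets in the results below was not tested. In both libraries 74 barcode sequences occurred, and 0 of them belonged to a Squam* cell.

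**Figure D1:**
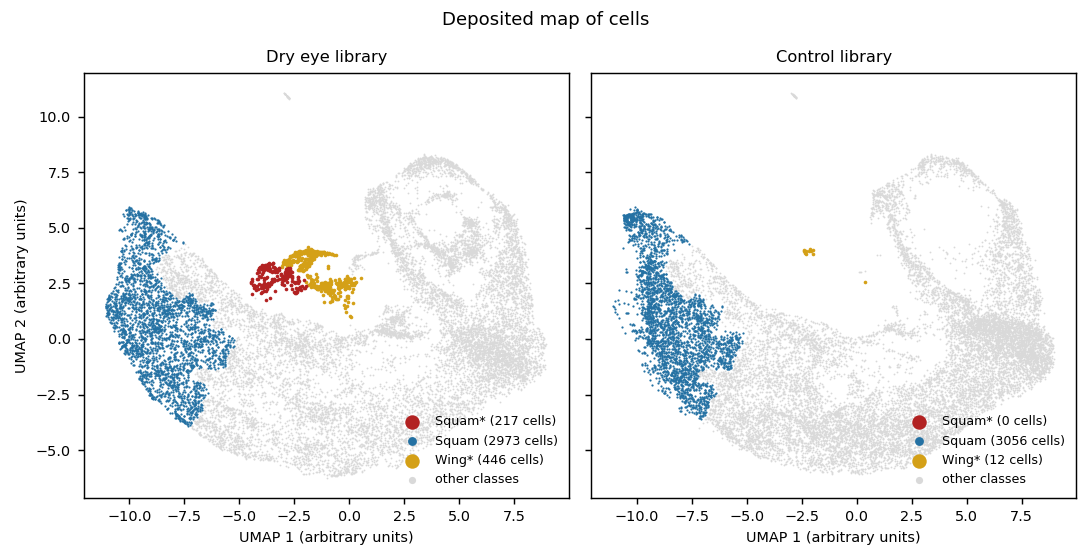
The deposited map of cells (2 axes in arbitrary units), dry eye library at left and control library at right, each point 1 cell. The 217 Squam* cells, all in dry eye, lie beside the 446 Wing* cells of dry eye and apart from the 2973 Squam cells, and 12 control cells are Wing*.

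On the deposited map Squam* lay beside Wing* and not beside Squam. The median of its first coordinate was -3.48, against -8.73 for Squam and -1.61 for Wing*. The second coordinate had a median of 2.77 in Squam*, 0.592 in Squam and 3.26 in Wing*. Conj had medians of -3.85 and 0.551. Its range from lower to upper decile overlapped that of Squam* on both coordinates. All Squam* cells come from a single library, and library and cell type cannot be told apart for them.

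Levels of 7 genes proposed as markers of Squam* came first. They were named with earlier results of these data in view, so their height in Squam* is a description. The stress keratin gene Krt16 (chromosome 11, 100246091 to 100248902, minus strand, build GRCm38) had 48096 UMIs in Squam*, or 13217 CPM. It stood at 255 CPM in Squam and at 11060 CPM in Wing*, and at 48.3 CPM in control Squam. The ratio was 51.9 over Squam (50.8 to 53.1) and 1.20 over Wing*, and the second was 0.923 without the 5% of cells with the most UMIs. Krt16 was thus the gene of this set that set Squam* apart from Squam most, and its level in Wing* was within 2-fold.

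Cnfn (chromosome 7, 25367620 to 25369724, minus strand) encodes cornifelin, a protein of the cornified envelope. It had 2317 CPM in Squam*, 436 in Squam and 1360 in Wing*, against 48.2 in control Squam. That is 5.31-fold over Squam (5.17 to 5.46) and 1.70-fold over Wing*, or 1.18-fold without the 5% of cells with the most UMIs. Cnfn reads were found in 78.8% of Squam* cells, 50.2% of Squam cells and 58.7% of Wing* cells.

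Il1f9 and Il1f6 lie side by side on chromosome 2 (24186476 to 24193568 and 24215418 to 24225702, plus strand) and encode the cytokines IL-36 gamma and IL-36 alpha, which surface epithelia make. Il1f9 had 197 CPM in Squam*, 51.2 in Squam, 107 in Wing* and 22.3 in control Squam, a ratio of 3.85 over Squam (3.52 to 4.20) and 1.84 over Wing* (1.68 to 2.02). Il1f6 had 66.2 CPM in Squam*, 28.5 in Squam, 49.3 in Wing* and 10.1 in control Squam. Its ratio was 2.32 over Squam (2.01 to 2.67) and 1.34 over Wing* (1.15 to 1.56). The ratio of Il1f6 over Squam was under 2-fold, at 1.96, when classes were scaled to a median ratio of 1.

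Ltf (chromosome 9, 111019271 to 111042767, plus strand) encodes lactoferrin, an iron-binding antimicrobial protein of tears and mucosae. It had 86.0 CPM in Squam*, 20.6 in Squam and 7.54 in Wing*, with 22.8 in control Squam. Squam* thus stood 4.18-fold over Squam (3.64 to 4.77) and 11.4-fold over Wing* (8.98 to 14.6). B3gnt7 (chromosome 1, 86302832 to 86307305, plus strand) encodes a glycosyltransferase known from the extension of keratan sulfate chains. It had 42.3 CPM in Squam*, 5.27 in Squam, 2.80 in Wing* and 4.31 in control Squam, ratios of 8.04 over Squam (6.44 to 10.0) and 15.1 over Wing* (10.3 to 22.8). These 2 genes of the 7 were at least 2-fold higher in Squam* than in either class.

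Ppbp (chromosome 5, 90768518 to 90770063, plus strand) encodes the chemokine CXCL7, best known from platelets. It had 78 UMIs in Squam*, 21.4 CPM, against 43 UMIs and 1.24 CPM in Squam and 260 UMIs and 22.0 CPM in Wing*. A single UMI was found in all control Squam cells. Its ratio was 17.3 over Squam (11.8 to 25.8) and 0.973 over Wing* (0.745 to 1.26). Of the 24 Squam* cells with a Ppbp read, 10 held 74.4% of the UMIs, so its level rests on few cells.

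**Figure D2:**
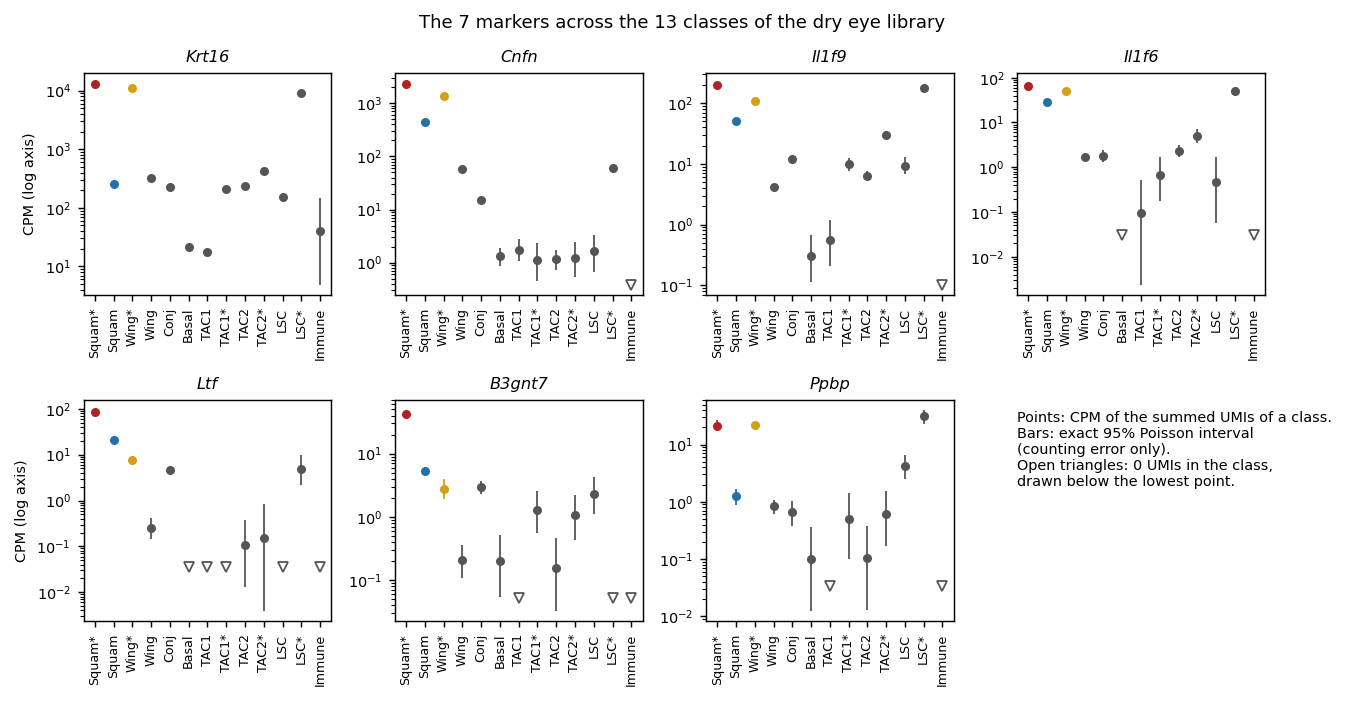
CPM of the summed UMIs (log axis) of the 7 markers in the 13 classes of the dry eye library, with exact 95% Poisson bars, open triangles for classes with 0 UMIs. Squam* is the highest of 13 classes for 6 markers and ranks 3 for Ppbp, behind LSC* and Wing*. For Il1f9 and Il1f6 its bars overlap those of LSC*. Without the cells with the most UMIs (not drawn), Krt16 is lower in Squam* than in Wing*.

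Across the 13 classes of dry eye, Squam* had the highest CPM for 6 of the 7 markers, and for Ppbp it ranked 3 of 13, at 21.4 CPM, behind 30.9 in LSC* and 22.0 in Wing*. The class next to it was Wing* for Krt16 and Cnfn, and Squam for Ltf and B3gnt7. It was LSC* for Il1f9, at 175 CPM, and for Il1f6, at 50.1 CPM. The first rank for Krt16 depended on the setting. Without the cells with the most UMIs, Krt16 was lower in Squam* than in Wing*. Counted per cell, Krt16 had 222 UMIs in Squam* and 293 in Wing*, whose cells were deeper. In the order of Il1f9 levels the interval of Squam* was 183 to 212 CPM. Ltf and B3gnt7 were scarce in LSC*, with 8 and 0 UMIs. In control, the 12 Wing* cells had 1219 CPM of Krt16, 1611 of Cnfn, 155 of Il1f9 and 108 of Il1f6. They had 36760 CPM of Psca, 27620 of Asprv1 and 31.0 of Ltf, and 0 UMIs of Ppbp and B3gnt7. They had 392 CPM of Krt14 and 3300 of Krt12, against 5155 and 19624 in Squam*. No control cell bore the name Squam*, while several of its genes had counts in control cells of another name. Whether those cells match Squam* was not tested.

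To set aside depth, 3000 UMIs were drawn at random from every cell, and shallower cells left out, leaving 212 Squam*, 2854 Squam, 443 Wing* and 2987 control Squam cells. Krt16 was then found in 93.9% of Squam* cells, 18.9% of Squam, 96.2% of Wing* and 4.55% of control Squam cells. Among classes with at least 50 cells, Basal had the lowest share of Krt16-bearing cells, at 4.75% thinned and 10.7% unthinned, with a median of 6126 UMIs. Cnfn was found in 67.5% of Squam*, 36.5% of Squam, 46.5% of Wing* and 7.53% of control Squam cells. Il1f9 was found in 44.8% of Squam*, 11.6% of Squam and 27.8% of Wing* cells, and Ltf in 20.3%, 4.06% and 3.39% in the same order. B3gnt7 was found in 12.7% of Squam*, 1.54% of Squam and 0.451% of Wing* cells. Among the same classes, the lowest thinned share was 0 for Cnfn, Ltf and B3gnt7 and 0.0898% for Il1f9.

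Against Squam, 3908 genes had at least 50 UMIs over both classes and 20 CPM in one. At least 2-fold higher in Squam* were 343 of them (8.78%), at least 2-fold lower 157 (4.02%), with a median log2 ratio of 0.25. Against Wing*, 4626 genes were compared, of which 361 were higher (7.8%) and 738 lower (16.0%), with a median log2 ratio of -0.26. Scaling to a median ratio of 1 removed that shift and turned the split to 211 higher and 257 lower against Squam, and to 539 higher and 457 lower against Wing*. The balance of higher and lower genes thus followed the scaling, and the ratios below carry these shifts. The 7 markers, all at least 2-fold higher than in Squam, were proposed on this contrast, so nothing is read from their count. For every list of genes in this report, counts past 2-fold are to be set beside the shares of 8.78%, 4.02%, 7.8% and 16.0% given here. A count near these shares is no result about the list.

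Most genes that differed between Squam and Wing* had a level in Squam* between the other classes. Of 3794 genes compared with both, Squam and Wing* were at least 2-fold apart for 1408, and Squam* lay between them for 1307 of these (92.8%), above both for 83 and below both for 18. At least 2-fold higher than Squam and at least 2-fold lower than Wing* were 76 genes, and 51 were the other way. Both comparisons share the Squam* cells, so the counts are not independent.

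**Figure D3:**
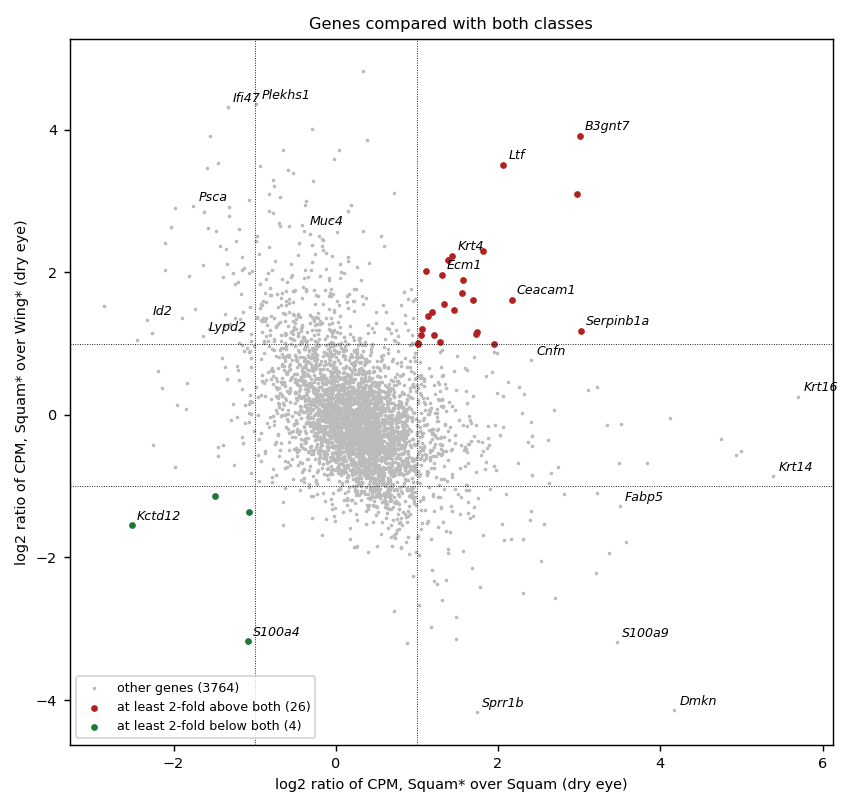
Log2 ratio of CPM of Squam* over Squam (horizontal) and of Squam* over Wing* (vertical), each point 1 of 3794 genes, dotted lines at 2-fold. The 26 red genes, B3gnt7, Ltf and Ceacam1 among them, lie at least 2-fold above both classes and the 4 green genes at least 2-fold below both.

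Keratins set out the position of Squam* well. Of the 4 stress keratins, Krt16 and Krt17 were at least 2-fold higher than in Squam, and Krt6a and Krt6b had ratios of 1.93 and 1.29. Krt17 had 232 CPM in Squam*, 7.62 in Squam and 342 in Wing*, 30.5-fold over Squam (26.5 to 35.1). Krt6a had 11140 CPM in Squam*, 5783 in Squam and 10813 in Wing*. Krt6a and Krt6b are near-identical copies, as are parts of Krt14, Krt16 and Krt17, which neighbour each other on chromosome 11, so reads may have been shared among them.

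The basal keratin gene Krt14 had 5155 CPM in Squam*, 123 in Squam, 9368 in Wing* and 11.1 in control Squam. It stood 41.8-fold over Squam (40.5 to 43.3) and at 0.550 of the level in Wing*, and 99.5% of Squam* cells had a read, against 41.0% of Squam cells. Its partner Krt5 had 6632 CPM in Squam*, 3967 in Squam and 7779 in Wing*, a much smaller gap. Krt15, a keratin of basal and limbal cells, had 5919 CPM in Squam*, 3185 in Squam and 1922 in Wing*. It was 3.08-fold over Wing* (3.02 to 3.14) and 1.86-fold over Squam, and so did not follow Krt14.

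Of 12 other keratins compared with Squam, 3 were higher (Krt14, Krt4, Krt19) and 3 lower (Krt75, Krt78, Krt7), with a median log2 ratio of -0.10. Of 11 compared with Wing*, 8 were higher and 0 lower, with a median of 1.62. Krt19, a keratin of simple and conjunctival epithelium, had 1575 CPM in Squam*, 622 in Squam and 533 in Wing*, 2.53-fold (2.46 to 2.61) and 2.95-fold (2.85 to 3.06) higher. Krt4, a keratin of moist stratified epithelia, had 479 CPM in Squam*, 177 in Squam and 102 in Wing*, but 10 cells held 59.3% of its Squam* UMIs. Without the 10 cells of each class with the most Krt4 counts, the ratio over Squam was 1.42. Its partner Krt13 had 5590 CPM in Squam*, 7364 in Squam and 1478 in Wing*. Krt78, a keratin of the upper layers, had 84.4 CPM in Squam*, 314 in Squam and 32.8 in Wing*, and Krt7 53.3, 211 and 7.12 CPM in the same order.

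**Figure D4:**
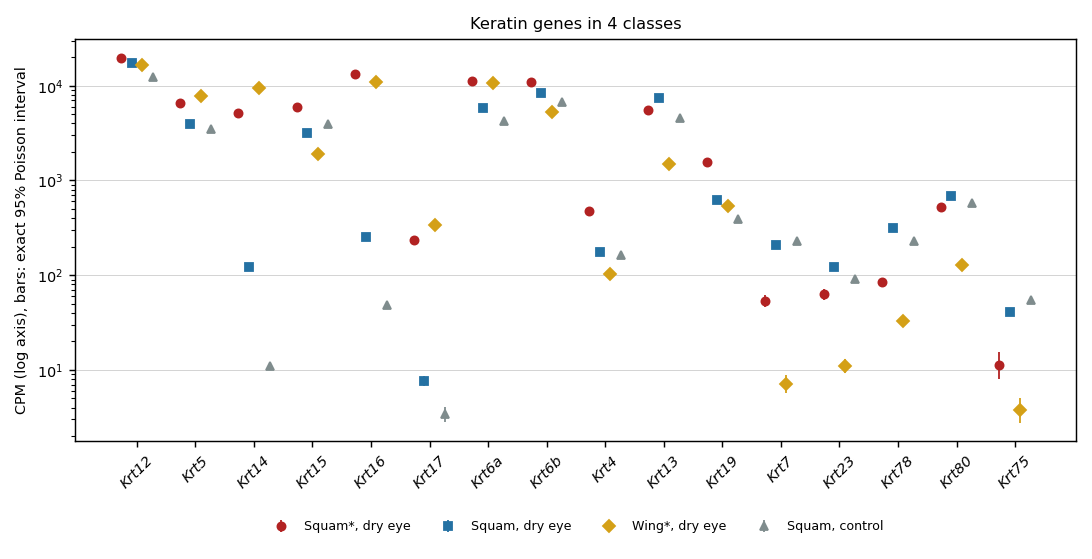
CPM (log axis, exact 95% Poisson bars) of 16 keratin genes in Squam*, Squam and Wing* of dry eye and Squam of control. Squam* lies near Wing* for Krt16 and Krt17, below Wing* and far above Squam for Krt14, and between both for Krt7 and Krt78.

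Genes of the Ly6 family, several of them surface proteins, were often lower in Squam* than in Squam. Of 10 Ly6-family genes compared with Squam, 5 were at least 2-fold lower (Ly6g6c, Lypd2, Psca, Slurp1, Slurp2) and 1 higher (Lypd3), with a median log2 ratio of -1.11. Among all genes compared with Squam, 4.02% were lower and 8.78% higher. Psca stood at 0.296 of Squam (0.293 to 0.300) and 7.61-fold over Wing*. Lypd2 had 6705 CPM in Squam*, 20852 in Squam and 3125 in Wing*, and Slurp1, a secreted family member, 4072, 14496 and 2976 CPM in the same order. Psca, Slurp1 and Lypd2 neighbour each other on chromosome 15 (74714839 to 74717069, 74724318 to 74728034 and 74732247 to 74734329). Lypd3, an adhesion protein of migrating and suprabasal keratinocytes, went the other way, with 276 CPM in Squam*, 95.5 in Squam and 723 in Wing*.

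Of 19 superficial markers compared with Squam, 3 were higher (Rhov, Cnfn, Lypd3) and 2 lower (Psca, Krt78), and against Wing* 9 were higher and 1 lower. Muc4 was 6.01-fold over Wing* (5.76 to 6.26) and at 0.761 of Squam. Muc20, another membrane mucin, had 195 CPM in Squam*, 344 in Squam and 22.8 in Wing*. The bladder-type membrane protein gene Upk1b had 973 CPM in Squam*, 1649 in Squam and 381 in Wing*, and Elf3, a transcription factor of epithelial differentiation, 1079, 1293 and 450 CPM. Rhov, a small GTPase, had 54.7 CPM in Squam*, 4.86 in Squam and 87.1 in Wing*, 11.2-fold over Squam (9.12 to 13.9).

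The 12 genes furthest below Squam were Phgr1, Il4i1, Slurp2, Snx31, Rab17, Plpp1, Upk3b, Slc13a2, Slc16a11, Id2, Ttc36 and Lce3f. Id2, an inhibitor of helix-loop-helix transcription factors, had 136 CPM in Squam*, 685 in Squam and 54.2 in Wing*, a ratio of 0.199 over Squam (0.182 to 0.217), and 765 CPM in control Squam. Il4i1, an oxidase of amino acids, had 2 UMIs in Squam* and 3 in Wing*, but 1537 UMIs and 44.2 CPM in Squam, with 83.4 CPM in control Squam. Its reads came from 5.21% of Squam cells. Phgr1 had 1.37 CPM in Squam*, 44.1 in Squam and 0.933 in Wing*. Rab17, a GTPase of polarised epithelia, had 3.57 CPM in Squam*, 40.5 in Squam and 1.44 in Wing*, and Upk3b, a uroplakin, 3.57, 32.7 and 0.678 CPM. For Il4i1, Phgr1, Rab17 and Upk3b the level in Squam* was closer to that in Wing* than to that in Squam.

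The 12 genes furthest above Squam were Krt16, Krt14, Krt17, Akr1b8, Rnf183, Dmkn, Ppbp, Fabp5, Fabp4, Stom, S100a9 and Rhov. Fabp5, the fatty acid-binding protein of keratinocytes, had 5218 CPM in Squam*, 461 in Squam, 12680 in Wing* and 73.0 in control Squam. Akr1b8, an aldo-keto reductase, had 81.3 CPM in Squam*, 2.56 in Squam and 116 in Wing*, 31.8-fold over Squam (25.0 to 40.7). Rnf183, a ubiquitin ligase, had 39.3 CPM in Squam*, 1.47 in Squam and 49.7 in Wing*. Stom, which encodes the membrane protein stomatin, had 148 CPM in Squam*, 12.9 in Squam and 161 in Wing*, with reads in 78.8% of Squam* and 12.7% of Squam cells. Stom had 12.7 CPM in control Squam too, so unlike Krt16 it did not differ between the Squam cells of dry eye and control. Fabp4 had 39.0 CPM in Squam*, 2.73 in Squam and 62.4 in Wing*, but 10 cells held 89.4% of its Squam* UMIs.

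Genes that were far lower in Squam* than in Wing* included alarmins and envelope precursors. S100a8 and S100a9 encode the subunits of calprotectin. S100a9 had 197 CPM in Squam*, 17.9 in Squam and 1798 in Wing*, 0.110 of Wing* (0.102 to 0.118), and S100a8 14.3, 3.63 and 481 CPM in the same order. Ly6d, a Ly6-family protein of keratinocytes, had 13.7 CPM in Squam*, 0.892 in Squam and 366 in Wing*, and 10 cells held 98.0% of its Squam* UMIs. Calm4, an epidermal calmodulin relative, had 4.12 CPM in Squam*, 16.8 in Squam and 68.5 in Wing*, and Crabp2, which binds retinoic acid, 2.20, 0.230 and 33.6 CPM. Plaur, the urokinase receptor, had 9 UMIs in Squam* and 385 in Wing*, 0.0758 of Wing* (0.0344 to 0.145). The other 6 of the 12 genes furthest below Wing* were Crip1, Dmkn, Mt1, Pinlyp, Sprr1b and Sprr2d.

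Of 17 cornified envelope genes compared with Squam, 5 were higher (Dmkn, Cnfn, Sprr1b, Sprr1a, Sbsn) and 1 lower (Cdsn), with a median log2 ratio of 0.30. Of 19 compared with Wing*, 3 were higher (Lce3a, Csta1, Ppl) and 7 lower, among them Sprr1a, Sprr1b, Sbsn and Dmkn. Sprr1a, a small proline-rich envelope precursor, had 1496 CPM in Squam*, 484 in Squam, 3900 in Wing* and 19.0 in control Squam. Sprr1b had 70.9 CPM in Squam*, 21.3 in Squam and 1280 in Wing*, and 0 UMIs in control Squam. Dmkn, the secreted dermokine, had 44.5 CPM in Squam*, 2.47 in Squam and 785 in Wing*. Cdsn, the corneodesmosome protein, had 60.5 CPM in Squam*, 145 in Squam and 54.5 in Wing*. Cnfn was thus the envelope gene whose level in Squam* passed that of Wing* while it stood above Squam by at least 2-fold. Genes of the Sprr2 family are near-identical copies, and their counts are uncertain.

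Several basal and matrix genes had levels between those of Squam and Wing*. Of 9 basal markers compared with Squam, 5 were higher (Krt14, Itgb1, Areg, Trp63, Col17a1) and 0 lower, with a median log2 ratio of 1.02. Against Wing*, 8 of 13 were lower and 1, Krt15, was higher, with a median of -1.71. Col17a1, a hemidesmosome collagen, had 69.5 CPM in Squam*, 34.2 in Squam and 443 in Wing*. Trp63, the transcription factor p63 of basal cells, had 20.9 CPM in Squam*, 8.0 in Squam and 80.3 in Wing*. Tgfbi, a matrix protein that the corneal epithelium secretes, had 84.4 CPM in Squam*, 24.6 in Squam and 449 in Wing*. The ratio of Gpha2, a gene of limbal cells, over Squam was 2.56 but 0.992 without the 10 cells of each class with the most counts.

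Several glycolysis genes had levels between the classes as well. Of 13 glycolysis and hypoxia genes compared with Squam, 7 were higher (Pkm, Pgam1, Eno1, Gapdh, Ldha, Higd1a, Tpi1) and 1 lower (Ndrg1), with a median log2 ratio of 1.06. Against Wing*, 9 of 18 were lower and 1 higher, with a median of -0.98. Pkm, the last enzyme of glycolysis, had 259 CPM in Squam*, 96.8 in Squam and 628 in Wing*, and Ldha, which makes lactate, 218, 95.3 and 471 CPM. The metallothionein gene Mt1 had 170 CPM in Squam*, 60.7 in Squam and 1496 in Wing*. Genes of cell division were low in Squam*. The 20 S phase genes summed to 106 CPM in Squam*, 85.8 in Squam and 337 in Wing*, the 20 genes of G2 and mitosis to 204, 154 and 424 CPM, and Mki67 had 12 UMIs in 3 Squam* cells.

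Genes higher in Squam* than in both classes by at least 2-fold were few. They were 26 of 3794 genes (0.685%), and 14 of them passed 2-fold by the bound of the interval nearest to 1. Without a limit on the fold, 426 of the 3794 genes had intervals above 1 against both classes, and 101 had intervals below 1 against both. By the smaller of the 2 lower bounds, leaving out predicted genes, the first 12 were B3gnt7, Ltf, Ceacam1, Cidea, Klk10, Krt19, Pglyrp4, Krt4, Ecm1, Klk8, Trpm6 and Tnfaip3. Without the 10 cells of each class with the most counts of a gene, 13 genes passed in place of 26.

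Ceacam1, a cell adhesion and signalling receptor of epithelia, had 821 CPM in Squam*, 183 in Squam, 268 in Wing* and 106 in control Squam. It was 4.49-fold over Squam (4.3 to 4.69) and 3.06-fold over Wing* (2.91 to 3.22), with a read in 98.6% of Squam* cells, 68.2% of Squam and 82.1% of Wing* cells. Ecm1, a secreted matrix protein, had 955 CPM in Squam*, 386 in Squam, 244 in Wing* and 202 in control Squam, 2.47-fold over Squam (2.38 to 2.56) and 3.91-fold over Wing* (3.72 to 4.11). Both genes were found in nearly every Squam* cell, so they do not rest on a few.

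The kallikreins Klk8 and Klk10, secreted serine protease relatives encoded near each other on chromosome 7, were above both classes. Klk10 had 189 CPM in Squam*, 64.7 in Squam, 58.1 in Wing* and 18.8 in control Squam. Klk8 had 126 CPM in Squam*, 48.6 in Squam and 27.9 in Wing*, and its ratio over Squam was 2.60 but 1.59 without the 10 cells of each class with the most counts. Serpinb1a, an inhibitor of neutrophil-type serine proteases, had 491 CPM in Squam*, 60.6 in Squam, 217 in Wing* and 102 in control Squam, 8.11-fold over Squam (7.61 to 8.64) and 2.27-fold over Wing* (2.14 to 2.41). Serpinb1a reads were in 93.1% of Squam* cells, 31.8% of Squam cells and 77.8% of Wing* cells.

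Pglyrp4, a peptidoglycan recognition protein, had 117 CPM in Squam*, 42.7 in Squam and 42.2 in Wing*. Tnfaip3, which restrains NF-kB signalling, had 22.3 CPM in Squam*, 6.88 in Squam and 7.29 in Wing*. Trpm6, a magnesium channel, had 21.2 CPM in Squam*, 7.14 in Squam and 5.68 in Wing*, and Cidea, a protein of lipid droplets, 25.8, 7.37 and 5.26 CPM. The other genes past 2-fold above both, named after their values were seen, were Cpn1, Dgat2, Dkkl1, Mcub, Morrbid, Parm1, Pgm2, Pld2, Qsox1, Serpinb1a, Slc35a3, Ttc22, Upp1 and the predicted gene 1700011B04Rik. The last had 195 CPM in Squam*, 24.8 in Squam and 22.8 in Wing*.

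At least 2-fold below both were 4 of 3794 genes (0.105%), named after their values were seen, and 0 by the bound. S100a4, a calcium-binding protein, had 11.5 CPM in Squam*, 24.5 in Squam and 104 in Wing*. Kctd12 had 7.15 CPM in Squam*, 40.9 in Squam and 20.9 in Wing*. Lgalsl, a galectin relative, had 99.8 CPM in Squam*, 209 in Squam and 256 in Wing*, and Zfhx3, a transcription factor, 13.5, 37.7 and 29.6 CPM.

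Promoters of 3 genes are shown because each stands for 1 of the patterns above: Ecm1 for the genes above both classes, Cnfn for the envelope gene that is highest in Squam*, and Ppbp for the gene shared with Wing* and LSC*. Each is the 250 bases before the RefSeq start of the gene, on the gene's strand, 5′ to 3′, build GRCm38.p6, with capitals for matches to TGANTCA (the AP-1 motif) or TATAAA (the TATA box) on either strand.
Ecm1, chr3:95739570-95739819, minus strand: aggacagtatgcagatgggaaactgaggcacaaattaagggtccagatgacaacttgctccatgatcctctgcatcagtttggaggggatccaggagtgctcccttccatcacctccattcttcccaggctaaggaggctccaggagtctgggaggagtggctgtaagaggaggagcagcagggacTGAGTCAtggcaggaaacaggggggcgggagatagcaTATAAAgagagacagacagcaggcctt
Cnfn, chr7:25369725-25369974, minus strand: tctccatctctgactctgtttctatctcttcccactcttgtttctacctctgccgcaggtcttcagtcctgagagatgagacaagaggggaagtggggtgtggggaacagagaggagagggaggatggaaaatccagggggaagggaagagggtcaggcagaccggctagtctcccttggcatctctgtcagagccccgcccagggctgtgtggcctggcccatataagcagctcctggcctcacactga
Ppbp, chr5:90768268-90768517, plus strand: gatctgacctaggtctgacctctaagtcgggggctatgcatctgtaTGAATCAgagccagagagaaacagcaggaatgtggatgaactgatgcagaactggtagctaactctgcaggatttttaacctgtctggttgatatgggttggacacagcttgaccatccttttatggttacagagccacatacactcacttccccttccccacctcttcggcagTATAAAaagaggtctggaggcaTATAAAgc

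In Ecm1 the AP-1 motif began 64 bases and the TATA box 27 bases before the start. In Ppbp the AP-1 motif began 204 bases before it, and 2 matches to TATAAA 30 and 8 bases before it. The Cnfn window matched neither. Of the 26 genes above both classes, 20 had a promoter of 300 bases in the RefSeq table (250 before and 50 after the start), and 5 of these (25.0%) held TGANTCA. The share was 5.85% of 3026 promoters of genes compared with both classes and 7.93% of all 27025 promoters. TATAAA was found in 2 of the 20 (10.0%), against 8.10% of the 3026. TTGCNNAA (the C/EBP motif) was in 4 of the 20, against 8.46% of the 3026, GGTGTGG (a Klf motif) in 3, against 8.23%, and the NF-kB motif in 1, against 1.72%. A match is a string in a window, and nothing about binding was measured. Of the 7 markers, 5 had a promoter in the table, all but Krt16 and Il1f6.

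The cytokines of the IL-1 and IL-36 families were compared next. Of 7 compared with Squam, 4 were higher (Il1f9, Il1a, Il1f6, Il1rl2) and 0 lower, with a median log2 ratio of 1.03. Against Wing*, 1 of 7 was higher (Il1f8) and 0 lower, with a median of 0.55. Shares over all genes compared were 8.78% higher and 4.02% lower against Squam, and 7.8% higher and 16.0% lower against Wing*. Il1a, the alarmin IL-1 alpha, had 89.6 CPM in Squam*, 27.6 in Squam, 50.9 in Wing* and 21.7 in control Squam. Il1f8, or IL-36 beta, had 94.3 CPM in Squam*, 49.2 in Squam, 46.8 in Wing* and 10.2 in control Squam, and its ratio of 2.01 over Wing* was 1.49 without the 5% of cells with the most UMIs. Il1rl2, the receptor of the IL-36 cytokines, had 26.1 CPM in Squam*, 12.8 in Squam and 17.8 in Wing*, and its ratio of 2.04 over Squam was 1.72 when scaled to a median ratio of 1. Il1rn, the natural antagonist of the IL-1 receptor, had 20.6 CPM in Squam*, 14.3 in Squam and 15.2 in Wing*. Il1b had 0 UMIs in Squam*, 7 in Squam and 5 in Wing*, so ligands of the IL-36 branch and IL-1 alpha were present and IL-1 beta was not detectable at this depth.

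Of 12 NF-kB genes compared with Squam, 3 were higher (Tnfaip3, Bcl3, Zc3h12a) and 0 lower, and of 11 compared with Wing*, 3 were higher (Tnfaip3, Birc3, Ier3) and 0 lower. Over all genes compared, 8.78% were higher and 4.02% lower than in Squam, and 7.8% higher and 16.0% lower than in Wing*. Bcl3, a nuclear partner of NF-kB, had 89.9 CPM in Squam*, 29.3 in Squam, 58.1 in Wing* and 8.64 in control Squam. Stat3, the transcription factor downstream of IL-6-type cytokines, had 86.3 CPM in Squam*, 36.8 in Squam and 84.3 in Wing*. Socs3, a feedback inhibitor of that pathway, had 13.7 CPM in Squam*, 0.547 in Squam and 32.9 in Wing*.

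By their median ratio, interferon-response genes in Squam* were closer in level to Squam than to Wing*. Of 14 compared with Squam, 1 was higher (Ifitm3) and 2 lower (Irf7, Isg15), with a median log2 ratio of -0.33. Of 14 compared with Wing*, 9 were higher and 1 lower, with a median of 2.18. Isg15, a ubiquitin-like modifier, had 41.5 CPM in Squam*, 115 in Squam, 6.95 in Wing* and 163 in control Squam. Rtp4 had 31.6 CPM in Squam*, 32.1 in Squam and 2.63 in Wing*, and Ifit1bl1, among the 12 genes furthest above Wing*, 790, 1240 and 60.3 CPM. Ifitm3, a membrane protein that blocks virus entry and is also a limbal marker, had 111 CPM in Squam*, 34.7 in Squam and 494 in Wing*.

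The other genes furthest above Wing* were Adgrf1, B3gnt7, Ifi47, Itgam, Ltf, Naip1, Ocm, Plekhs1, Ripply3, Slc44a4 and Tspan1. Itgam, best known as the integrin CD11b of myeloid cells, had 117 CPM in Squam*, 223 in Squam, 10.4 in Wing* and 215 in control Squam, in cells without Ptprc. Adgrf1, an adhesion G protein-coupled receptor, had 142 CPM in Squam*, 213 in Squam and 13.1 in Wing*. Ocm, the calcium-binding oncomodulin, had 67.3 CPM in Squam*, 51.4 in Squam and 4.66 in Wing*. Plekhs1 had 73.1 CPM in Squam*, 145 in Squam and 3.56 in Wing*, 20.5-fold over Wing* (14.8 to 29.2).

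Of 9 antimicrobial genes compared with Squam, 4 were higher (S100a9, Wfdc2, Ltf, Pglyrp4) and 1 lower (Slpi). Against Wing*, 5 of 9 were higher (Ltf, Pglyrp1, Plac8, Defb1, Pglyrp4) and 3 lower (Wfdc2, S100a9, S100a8). Wfdc2, a secreted protease inhibitor, had 215 CPM in Squam*, 23.0 in Squam and 457 in Wing*, and Pglyrp1, a peptidoglycan-binding protein, 3025, 3391 and 586 CPM. The secreted inhibitor gene Slpi had 9.62 CPM in Squam*, 28.9 in Squam and 13.6 in Wing*. Defb1, a beta-defensin, had 691 CPM in Squam*, 1325 in Squam and 193 in Wing*. The antimicrobial genes of Squam* were thus drawn from those of both classes, with Ltf and Pglyrp4 above each.

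Of 17 kallikreins and other proteases compared with Squam, 6 were higher (Tmprss11d, Klk10, Tmprss11b, Klk8, Tmprss11a, Ctsd) and 1 lower (Prss8), and of 18 compared with Wing*, 8 were higher and 2 lower. Among all genes compared, 8.78% were higher and 4.02% lower than in Squam, and 7.8% higher and 16.0% lower than in Wing*. Prss22 and Prss27, serine proteases of epithelia, had 887 and 1571 CPM in Squam*, 1144 and 1251 in Squam, and 111 and 262 in Wing*. Of 13 protease inhibitors compared with Squam, 4 were higher (Serpinb1a, Serpinb5, Spink5, Stfa3) and 1 lower (Slpi). Spink5, the kallikrein inhibitor LEKTI, had 625 CPM in Squam*, 150 in Squam and 519 in Wing*.

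Among junction genes, 1 of 14 tight junction genes was higher than in Squam (Cldn1) and 2 lower (Cldn23, Pard6b), and against Wing* 4 of 14 were higher and 0 lower. Cldn1 had 30.5 CPM in Squam*, 4.86 in Squam and 53.5 in Wing*, and Cldn23 216, 482 and 52.9 CPM. Of 14 desmosome genes, 3 were higher than in Squam (Dsg3, Dsc2, Pkp1) and 2 lower (Cdsn, Dsg2). Shares over all genes compared were 8.78% higher and 4.02% lower against Squam, and 7.8% higher and 16.0% lower against Wing*. Dsg3 had 392 CPM in Squam*, 161 in Squam and 492 in Wing*.

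Of 28 differentiation transcription factors compared with Squam, 8 were higher, among them Barx2, Sox9, Bhlhe40, Trp63, Cebpb and Grhl3, and 1 was lower (Id2), with a median log2 ratio of 0.30. Of 33 compared with Wing*, 5 were higher (Elf5, Hopx, Id2, Elf3, Prdm1) and 8 lower, with a median of -0.05. All genes compared had shares of 8.78% higher and 4.02% lower against Squam, and 7.8% higher and 16.0% lower against Wing*. Hopx had 2559 CPM in Squam*, 3681 in Squam and 960 in Wing*. The corneal factor Pax6 differed little, with 189 CPM in Squam*, 178 in Squam and 225 in Wing*, and Klf4 had 1315, 1064 and 1190 CPM. Of 13 genes of mucin and glycan synthesis compared with Squam, 2 were higher (B3gnt7, Lgals7) and 0 lower. Of 12 barrier lipid genes, 2 were higher (Fabp5, Dgat2) and 0 lower.

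Krt16 and Psca passed a set level together in a larger share of Squam* cells than of Squam or Wing* cells. At a threshold of 10 UMIs per 10000, chosen after the values were seen, 144 of 217 Squam* cells (66.4%, 59.7 to 72.6) had both Krt16 and Psca. This held for 5.55% of Squam cells, 15% of Wing* cells and 1.28% of control Squam cells. Krt16 without Psca was found in 23.0% of Squam* cells and Psca without Krt16 in 10.6%, against 93.9% of Squam cells with Psca alone and 76.7% of Wing* cells with Krt16 alone. The Squam* cells with both had a median of 14304 UMIs, those with Krt16 alone 9573 and those with Psca alone 12591. The part of depth and of doublets in this count was not tested.

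At least 1 read of 5 or more of the 7 markers was found in 41.0% of Squam* cells, 1.72% of Squam, 12.3% of Wing* and 0.262% of control Squam cells. After thinning it was found in 5.66% of Squam*, 0.0350% of Squam and 1.13% of Wing* cells. The median number of markers per cell was 4 in Squam*, 1 in Squam, 3 in Wing* and 0 in control Squam, and after thinning 3 in Squam*, 1 in Squam, 2 in Wing* and 0 in control Squam. 0 of 217 Squam* cells lacked all 7, and 3 such cells would be 1.38% of the class. All 7 were lacking in 3 of 446 Wing* cells (0.673%), so this was shared with Wing*. They were lacking in 26.3% of Squam and 65.9% of control Squam cells.

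**Figure D5:**
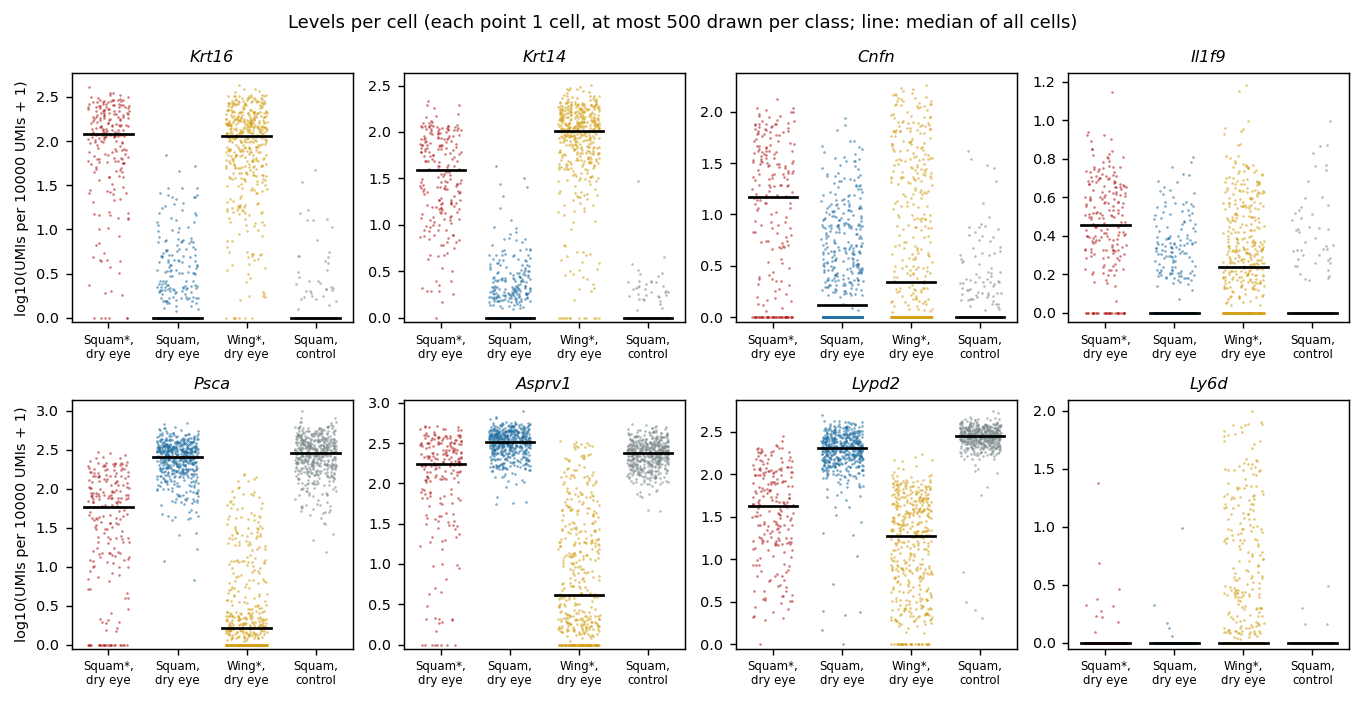
Level per cell, as log10 of UMIs per 10000 plus 1, of 8 genes in Squam*, Squam and Wing* of dry eye and Squam of control (points: cells, at most 500 per class; line: median of all cells). Krt16 and Krt14 in Squam* reach the range of Wing*, Psca, Asprv1 and Lypd2 overlap that of Squam, and Ly6d is near 0 in all but Wing*.

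Squam* cells varied widely among themselves. Krt16 had a median of 118 UMIs per 10000, with 9.26 at the lower and 263 at the upper decile. Psca had a median of 56.2, with 0 and 187 at the same deciles, and Cnfn a median of 13.8, with 0 and 70.2. Among 626 genes with a mean of at least 0.5 UMIs per thinned cell, the variance over the mean was highest for Malat1 (37.5), Asprv1 (32.7), Fth1 (31.6), Gsto1 (26.7), Psca (21.6) and Krt16 (21.5). For Asprv1 it was 11.2 in Squam and 40.9 in Wing*, and for Krt16 8.92 in Squam and 21.0 in Wing*. Malat1 had 76.8 in Squam and 37.4 in Wing*, and Fth1 51.9 in Squam and 16.7 in Wing*, so the spread of these was no greater in Squam* than in Squam.

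Genes of the surface and of the Wing* side went opposite ways among the 212 thinned cells. Asprv1 and Psca had a Pearson correlation of 0.78 over these cells, and Asprv1 and Gsto1, a glutathione transferase, 0.60. On the other side, Krt16 and Fabp5 had 0.63, Krt16 and Krt14 0.59, and Krt14 and Fabp5 0.65. Across the sides, in Squam*, the values were negative, at -0.42 for Krt16 with Psca, -0.57 for Fabp5 with Psca and -0.67 for Fabp5 with Gsto1. Within Wing* some values were similar, at 0.61 for Asprv1 with Psca, 0.59 for Krt14 with Fabp5 and -0.46 for Krt14 with Psca. Others were not, at -0.35 for Fabp5 with Gsto1 and 0.02 for Krt16 with Gsto1, which had -0.52 in Squam*. Within Squam, Asprv1 with Psca had 0.39, Krt14 with Fabp5 0.14 and Krt14 with Psca -0.09. Cnfn followed neither side, in Squam*, with 0.17 for Krt16 and 0.05 for Asprv1, and went with Sprr1a (0.49), Lce3a (0.47) and S100a10 (0.51) and against Aldh3a1 (-0.55), the corneal crystallin enzyme. Lypd2 and Slurp1 had 0.76, Mt1 and Mt2 0.74, and Krt4 and Krt15 0.48. All cells shared 1 library, and counts thinned to one total are bound to each other, so these values describe the cells. The genes in these pairs were chosen after their values were seen.

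By whole profile, most Squam* cells were nearest to Squam or Wing* of dry eye, and some to Conj. Over 8471 genes, the class mean of dry eye with the highest correlation to a Squam* cell was Squam for 113 cells (52.1%, 45.2 to 58.9), Wing* for 81 (37.3%, 30.9 to 44.1), Conj for 21 (9.68%) and Wing for 2. Without the 7 markers and the keratin genes, Squam was nearest for 53.9% and Wing* for 32.3%. Among the classes of control, Squam was nearest for 55.3% of Squam* cells, Conj for 36.9% and Wing for 7.83%.

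In 30 principal components of 2000 variable genes, a Squam* cell had a median of 12 of its 15 nearest cells in Squam* itself, and at least 8 in 80.6% of cells. Of the 15 nearest cells of other classes, dry eye Squam gave 39.6%, dry eye Wing* 38.6%, Conj 11.2% and Wing 9.19%, and each control class under 0.6%. No cell of control was among these neighbours for 194 of the 217 Squam* cells. The profile was also used to make the classes, so nearness to the own class is no finding.

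Squam cells of dry eye themselves also differed from those of control for several of the genes described. Of 3686 genes compared, 40 were at least 2-fold higher in dry eye Squam (1.09%) and 25 lower (0.678%). The ratio of dry eye over control was 5.27 for Krt16 (5.0 to 5.56), 9.05 for Cnfn (8.61 to 9.53), 2.29 for Il1f9, 2.81 for Il1f6, 11.1 for Krt14 and 6.32 for Fabp5. It was 0.903 for Ltf (0.815 to 1.0) and 1.22 for B3gnt7 (0.979 to 1.53), 2 markers that were high in Squam* without being higher in dry eye Squam by 2-fold. Serpinb1a had 0.594 (0.562 to 0.627), below 1 in dry eye Squam while 8.11-fold higher in Squam* than in dry eye Squam. Both comparisons use the same dry eye Squam cells, and each group is 1 library, so none of these differences has a replicate check.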

How the data were processed

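The corneal epithelium of 2 samples, dry eye and control, was measured by single-cell RNA sequencing, 1 library each. As deposited, the values were whole UMI counts without normalization (0 were not whole), over 17891 genes and 33885 cells. A second deposited table gave each cell's library, class and map position, a score the authors computed with a method not stated in the labels or file headers. Cell Ranger 6.0.1, Seurat 4 and mm10 stand in the submitters' processing notes. The dry eye library held 207030777 UMIs and the control library 191493194.

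Counts were summed per class and scaled to CPM, and 1 UMI was worth 0.275 CPM in Squam*, 0.0288 in Squam and 0.0848 in Wing*. Ratios carry exact Clopper-Pearson intervals from the split of both counts, and levels exact Poisson intervals, for counting error only. Genes needed 50 UMIs over both classes and 20 CPM in one, and 2-fold was the limit for a call. With 1 library per group and classes made from the same genes, no p-value was computed. The text names the 12 highest and 12 lowest genes of each comparison by the interval bound nearest to 1, leaving out predicted, mitochondrial, ribosomal and haemoglobin genes, up to 12 genes above both classes, up to 3 per list in each direction and a fixed list of 31 genes. Genes named outside this rule were chosen after their values were seen. The Squam* class, its markers and all 44 lists were chosen with earlier results of these data known. Free RNA was not removed in the main values and no doublet caller was run. Gene positions came from GENCODE and promoters from RefSeq (GRCm38.p6). Alternatives were thinning, means over cells, leaving out cells, scaling, other minimums and subtraction of free RNA. Python 3.11.15, numpy 2.4.6, pandas 2.3.3, scipy 1.17.1, scikit-learn 1.9.0 and matplotlib 3.10.9 were used. The ratios and their intervals were tested on simulated counts, and the call step was not.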

Additional observations from a re-analysis of the deposited data

How the results depend on the processing

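No paired analysis was possible because each group is 1 library and no test was made. Squam* made up 1.32% of dry eye cells and 1.33% of those with at least 2000 UMIs. Squam stayed the most frequent nearest class, before Wing*, without the 7 markers and the keratin genes. Against Squam, 343 genes were at least 2-fold higher and 157 lower. Leaving out the 10 cells of each class with the most counts of a gene gave 173 and 313, which takes 10 of 217 cells on one side and 10 of 2973 on the other. Scaling to a median ratio of 1 gave 211 and 257, a minimum of 1 UMI in each class 3080 and 584, a minimum of 200 UMIs and 50 CPM 185 and 96, and subtracting free RNA, read from the class with the fewest UMIs of a gene per cell, 1822 and 260. Against Wing*, 361 genes were higher and 738 lower. A minimum of 1 UMI gave 1079 and 3261. The lower genes numbered 473 after thinning, 1161 without the 10 cells, 457 when scaled, 324 with the stricter minimum and 1602 with free RNA subtracted. Between dry eye and control Squam, 40 genes were higher and 25 lower. A minimum of 1 UMI gave 627 and 1208, the stricter minimum 22 and 11, and subtracting free RNA 136 and 719, while scaling gave 16 lower. Above both classes were 26 genes, with 14 by the interval bound, 91 at 1.5-fold, 3 at 4-fold, 13 without the 10 cells and 292 with a minimum of 1 UMI. Below both were 4 genes, with 0 by the bound, 20 at 1.5-fold, 0 at 4-fold, 2 as a mean over cells, 19 without the 10 cells, 177 with a minimum of 1 UMI, 1 with the stricter minimum and 26 with free RNA subtracted. The alternatives for the last 2 pairs of counts were chosen after seeing the data. The cause of these shifts was not tested beyond what the settings themselves change. Among named genes past 2-fold, 92 against Squam and 119 against Wing*, each stayed on its side of 1 under the 7 settings that changed cells, scaling or free RNA, except Gpha2 over Squam, at 0.992 without the 10 cells. Without the 10 cells, 81 of the 92 and 114 of the 119 were still past 2-fold. Of the 119, 107 were after thinning, 107 without the 5% of cells with the most UMIs and 106 as a mean over cells. The 217 cells give 1 UMI a weight of 0.275 CPM, so genes near 20 CPM in Squam* rest on few molecules.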
